A study of Drosophila melanogaster and Drosophila simulans with 122 samples.

Results

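The genes of the dosage compensation complex of Drosophila melanogaster were followed through spermatogenesis in flies that carry different versions of an X-linked miRNA locus. The members were taken by symbol and are msl-1, msl-2, msl-3, mle, mof, Clamp, lncRNA:roX1 and lncRNA:roX2 (called roX1 and roX2 from here on), 8 of the 17873 genes in the FPKM tables. They were read in 71 D. melanogaster libraries, which were 9 testis samples and 62 single cysts, out of the 122 libraries of the series. The replacement line is D. melanogaster in which the mir-983-1 and mir-983-2 genes gave way to dsi-mir-983a of D. simulans, D. mel KO lacks both endogenous genes after CRISPR-Cas9 deletion, and D. mel WT is the w1118 strain in which these changes were made. Each genotype is a single line, so an effect of the miRNA locus and any other difference between lines cannot be told apart.

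Testes came from mated males 3 to 5 days after eclosion, with 20 to 25 pairs pooled per sample and 3 samples per line. A cyst is a group of germ cells that descend from 1 founder cell and develop together inside a somatic envelope. Cysts came from mated males 2 to 3 days after eclosion and were picked singly by capillary and staged by cell size and number, with 16 cells per cyst at the first pair of stages. The stages were spermatogonia (SG), primary spermatocytes (pSC), round spermatids (rST) and elongating spermatids (eST). The replacement line had 5, 5, 5 and 5 cysts at SG, pSC, rST and eST, D. mel KO had 4, 5, 6 and 6, and D. mel WT had 6, 5, 5 and 5. Each cyst gave 1 library from amplified cDNA, whereas testis RNA was pooled and not amplified this way, so levels were not compared between testes and cysts.

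In males of Drosophila the dosage compensation complex coats the single X chromosome and raises its transcription towards the output of the pair of X chromosomes in females. MSL-1 is the scaffold on which the protein subunits assemble, MSL-2 is the male-specific subunit and a ubiquitin ligase, and MSL-3 is a chromodomain protein that binds chromatin of active genes. MLE is an RNA helicase that unwinds the roX RNAs so that they enter the complex, MOF is the histone acetyltransferase, and CLAMP is a zinc finger protein that guides the complex to its entry sites on the X chromosome. The long noncoding RNAs roX1 and roX2 are X-linked, serve in part redundantly as the RNA component, and in somatic cells are abundant in males. MOF also works with the NSL proteins at promoters of many genes, and CLAMP binds many sites outside the X chromosome. The complex is best known from male somatic cells, and whether germ cells of the testis use the same means of compensation has long been debated.

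The members lie apart from each other in Release 6 of the genome. On the left arm of chromosome 2, msl-1 (FBgn0005617) is at 2L:18683720-18688800, msl-2 (FBgn0005616) at 2L:3462218-3466112 and Clamp (FBgn0032979) at 2L:22165720-22169143, all on the minus strand. On the minus strand are also msl-3 (FBgn0002775) at 3L:7123213-7125533 and mle (FBgn0002774) at 2R:5974857-5980778. On the X chromosome are mof (FBgn0014340) at X:5873840-5876853 on the minus strand, roX1 (FBgn0019661) at X:3857230-3862697 on the minus strand and roX2 (FBgn0019660) at X:11579065-11580432 on the plus strand. Counting ignored strand, so shared exon bases matter. They were absent in msl-1, mle and roX2, and reached 502 bases (17.3% of exon length) in Clamp with CG42748 on the opposite strand and 392 bases (7.2%) in roX1 with ec on the opposite strand.

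Total counts were 15478484 to 21368301 per testis library (median 18733715) and 14870386 to 24086166 per cyst (median 19280248). The mir-983-1 and mir-983-2 genes, the targets of the deletion, are short precursors outside the count tables, and in the FPKM tables they were above 0 in 4 of 71 libraries with a highest value of 0.147 FPKM, so they give no check of the labels. Over 393 genes that distinguish the lines in testes, 62 of 62 cysts were most like their own line. The margin was smallest in KO SG replicate 2, with correlations of 0.044 with KO, 0.034 with WT and -0.074 with the replacement line. The label of that cyst was therefore hardly checked. Stage markers followed the labels in part. The summed level of 4 spermatogonial markers (aub, bam, vas and bgcn) was 77.5 to 592 FPKM in SG cysts, and at most 51.8, 16.9 and 18.4 FPKM in pSC, rST and eST cysts. The summed level of 4 spermatid markers (soti, r-cup, d-cup and schuy) was 1560 to 2520 FPKM in rST and 592 to 2220 FPKM in eST cysts, but also 737 to 2320 FPKM in pSC and 20.2 to 1170 FPKM in SG cysts, so SG and pSC cysts also held RNA of these markers. In SG and pSC cysts the 4 spermatocyte markers (can, sa, nht and tbrd-1) had overlapping sums in every line. Their medians were 270 and 363 FPKM in the replacement line, 243 and 312 FPKM in KO, and 264 and 343 FPKM in WT. The part of this RNA in the changes of pSC over SG was not tested. No germ cell marker of these lists was at 0 throughout a group.

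A transcript that falls in a cyst may do so because fewer cells carry it or because each cell holds less of it, and in bulk samples these cannot be told apart. Where nothing in the labels says that cysts came from separate animals, p-values measure the spread between these cysts. Levels are given as FPKM, fragments scaled to transcript length and library size. Fold changes were computed from counts scaled by TMM, with their standard error (SE) and an adjusted p (FDR) from the quasi-likelihood test of edgeR over all genes tested. A gene was called when the log2 fold change was beyond 1 in either direction and the FDR was under 0.05. TMM sets the bulk of the genes level, while FPKM sets the library total level. Across 10925 genes of at least 1 FPKM, the median difference in WT was -0.82 (log2) on the FPKM scale between rST and SG and -1.76 between eST and SG. A member can therefore be lower in FPKM and little changed after TMM. Among 144 member contrasts between stages, 15 had opposite signs on the 2 scales, and 0 of these 15 were called.

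In testes the 8 members spanned more than 1 order of magnitude, and their order was nearly the same in all 3 lines. Clamp was the most abundant at 32.3 ± 0.322 FPKM in the replacement line, 34.5 ± 1.34 FPKM in KO and 33.9 ± 2.11 FPKM in WT (SD, n = 3 each). Next came roX1 at 17.0 ± 0.473 FPKM in the replacement line, 19.4 ± 1.61 FPKM in KO and 18.5 ± 2.54 FPKM in WT. The pair mle and msl-3 had 12.2 ± 0.981 and 10.6 ± 0.256 FPKM in the replacement line, 12.4 ± 1.58 and 12.2 ± 0.664 FPKM in KO, and 12.1 ± 1.37 and 12.2 ± 0.705 FPKM in WT, so these neighbours lay within their spread in KO and WT. Below them, mof averaged 4.57 ± 0.482, 4.04 ± 0.320 and 4.37 ± 0.560 FPKM in the replacement line, KO and WT. Then came msl-2 with 3.33, 3.20 and 3.55 FPKM in the replacement line, 3.80, 3.07 and 4.10 FPKM in KO and 3.10, 2.89 and 3.85 FPKM in WT. msl-1 averaged 2.15 ± 0.313, 2.34 ± 0.146 and 2.12 ± 0.140 FPKM in the replacement line, KO and WT, below every msl-2 sample of its line. The scarcest member was roX2, with 1.28, 0.953 and 1.04 FPKM in the replacement line, 1.29, 1.18 and 1.58 FPKM in KO and 1.56, 0.924 and 1.19 FPKM in WT, which rests on 22 to 37 counts per library. In every testis library roX1 exceeded roX2, and the median ratio of roX1 to roX2 was 16.3 in the replacement line, 14.6 in KO and 16.9 in WT.

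**Figure D1:**
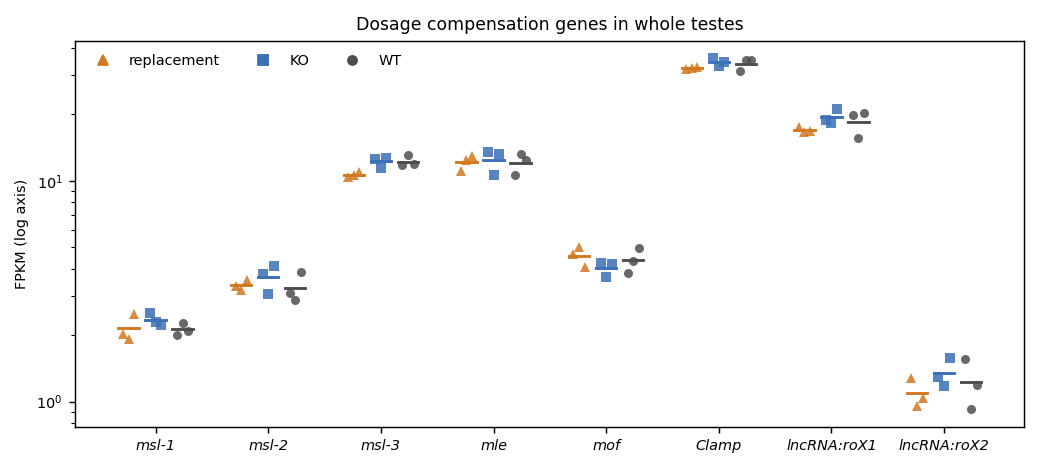
Levels of the 8 genes in testes, in FPKM on a log axis. Points are the 3 samples of each line (replacement, KO and WT from left to right) and bars are their means, and in every gene the lines overlap or lie close together, from Clamp at 32.3 to 34.5 FPKM down to roX2 at 1.09 to 1.35 FPKM.

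Across the cyst stages most members were high in SG and low in round spermatids. In this comparison msl-1 had the largest change in the replacement line and in WT, and mle in KO. In rST over SG, 5 members (msl-1, msl-2, msl-3, mle and mof) were called lower in each of the 3 lines. This made 7 of 8 members called lower in the replacement line (36.0% of all genes tested were called lower), 7 of 8 in KO (36.4%) and 5 of 8 in WT (30.3%). The WT call of msl-3, at -1.05, was lost without any of SG replicate 2 and rST replicates 2, 3 and 5 (-0.95 to -0.93), and the replacement call of roX2, at -1.57, without any of SG replicates 2 and 6 and rST replicates 1, 3 and 4 (-1.54 to -1.10). Between eST and SG, 6, 5 and 5 of 8 members were called lower in the replacement line, KO and WT (29.9%, 30.4% and 34.1% of all genes tested). The members shared by the 3 lines there were Clamp, mof, msl-1 and msl-3, of which the KO call of msl-3, at -1.16, was lost without SG replicate 4 (-0.96) or eST replicate 4 (-0.97).

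Adjacent steps were compared as well. From SG to pSC, 4 of 8 members were called lower in the replacement line (22.0% of all genes tested), 5 of 8 in KO (25.4%) and 1 of 8 in WT (16.0%). In WT msl-3, mle, Clamp and roX1 were at -0.07 to 0.02 (log2) at this step. From pSC to rST the counts were 4 of 8 (18.5%), 2 of 8 (13.5%) and 5 of 8 (12.8%). In WT the median log2 fold change of the members was -0.24 for pSC over SG and -1.29 for rST over pSC, against 0.18 and -0.18 for all genes. From rST to eST the direction was mixed: 1 of 8 members was called higher in the replacement line (10.2% of all genes tested), 2 of 8 in KO (11.3%) and 1 of 8 in WT (12.0%), and the member called higher in every line was msl-2. Clamp was called lower at this step in the replacement line (1 of 8 members, 4.33% of all genes tested), and mof and Clamp in WT (2 of 8, 10.5%). Here the WT median of the members was 0.57, against 0.10 for all genes.

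**Figure D2:**
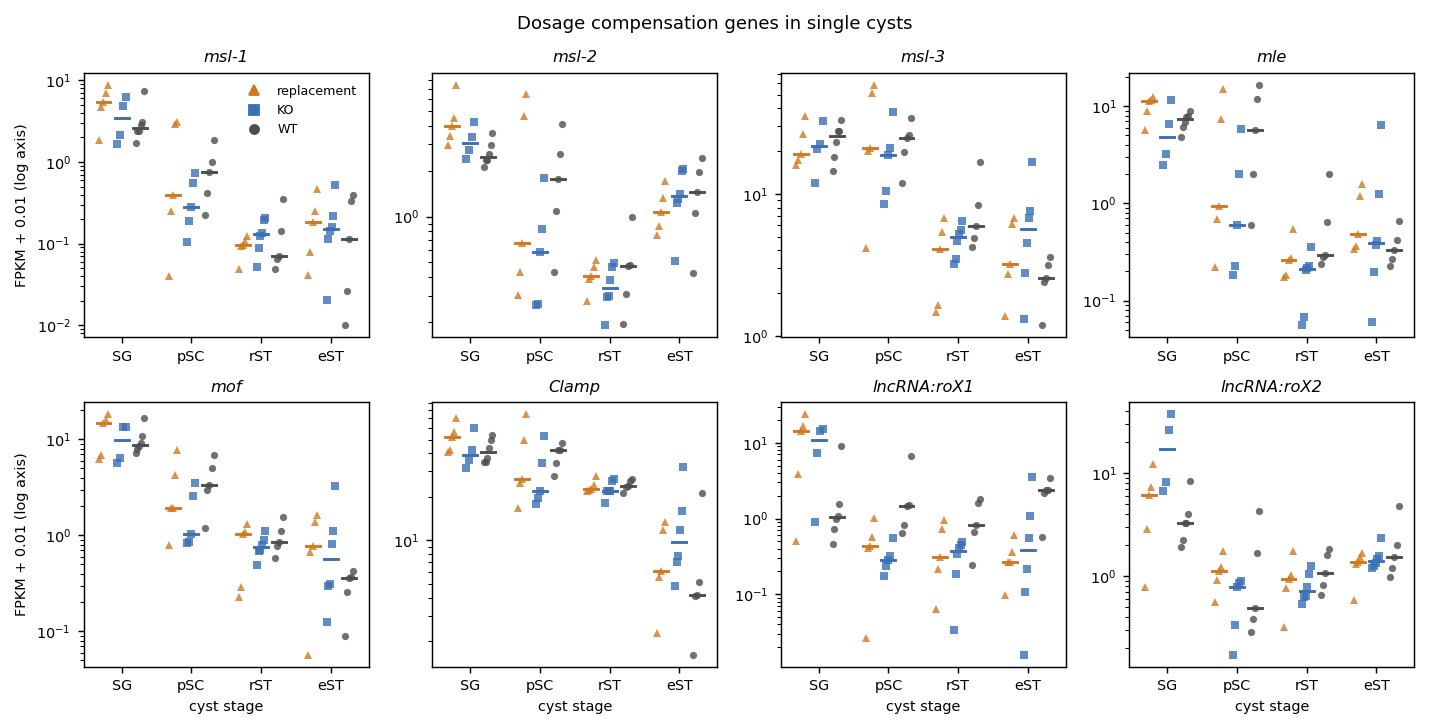
Levels of the 8 genes in each cyst by stage (SG, pSC, rST and eST from left to right) and line, in FPKM on a log axis after adding 0.01. Points are single cysts and bars are group medians, and msl-1 has a median of 2.61 FPKM in WT SG cysts with every rST cyst below every SG cyst in all 3 lines.

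msl-1, the scaffold of the complex, had 8.71, 5.44, 1.85, 7.06 and 4.74 FPKM in replacement SG cysts, 2.12, 4.85, 1.67 and 6.16 FPKM in KO SG cysts, and a lowest, median and highest value of 1.70, 2.61 and 7.35 FPKM in WT SG cysts. In rST cysts it had 0.115, 0.0388, 0.0846, 0.0964 and 0.0863 FPKM in the replacement line, 0.0423 to 0.194 FPKM with a median of 0.120 FPKM in KO, and 0.342, 0.133, 0.0615, 0.0548 and 0.0394 FPKM in WT. No rST cyst came near an SG cyst in any line. In rST over SG the log2 fold change was -5.48 (SE 0.91, FDR 3.93e-05, edgeR) in the replacement line, -3.97 (SE 0.63, FDR 2e-05) in KO and -4.15 (SE 0.81, FDR 0.000185) in WT, and the WT change became -4.79 without WT rST replicate 1. The rST values in WT rest on 7 to 41 counts per cyst.

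The pSC cysts were scattered between these ends. They held 2.93, 0.0307, 3.05, 0.242 and 0.384 FPKM of msl-1 in the replacement line, 0.269, 0.538, 0.718, 0.0935 and 0.179 FPKM in KO, and 1.85, 0.983, 0.409, 0.214 and 0.738 FPKM in WT. All KO pSC cysts were below all KO SG cysts, whereas 2 replacement pSC cysts and 1 WT pSC cyst reached the level of the lower SG cysts. For pSC over SG the log2 fold change was -2.19 (SE 0.77, FDR 0.0289, edgeR) in the replacement line, -2.95 (SE 0.65, FDR 0.0012) in KO and -1.93 (SE 0.72, FDR 0.0517) in WT, and the WT change was not called. The replacement call ended without any of SG replicates 1 and 5 and pSC replicates 4 and 5. The WT call of rST over pSC, -2.22 (SE 0.77, FDR 0.041), ended without any of 7 of the 21 WT cysts, and the change was -1.78 without pSC replicate 1. In eST msl-1 was at 0.0314 to 0.460 FPKM in the replacement line, 0.0105 to 0.520 FPKM in KO and 0 to 0.381 FPKM in WT.

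msl-2 encodes the subunit that makes the complex male-specific, since its translation is blocked in females. In SG cysts it had 3.42, 7.37, 2.98, 3.93 and 4.48 FPKM in the replacement line, 2.40, 3.33, 2.76 and 4.24 FPKM in KO, and 2.12, 2.47 and 3.57 FPKM as the lowest, median and highest value in WT. In rST cysts it had 0.454, 0.380, 0.506, 0.398 and 0.265 FPKM in the replacement line, a lowest, median and highest value of 0.181, 0.329 and 0.486 FPKM in KO, and 0.992, 0.187, 0.465, 0.297 and 0.470 FPKM in WT. Every rST cyst was below every SG cyst of its line. This gave log2 fold changes of rST over SG of -2.63 in the replacement line, -2.59 in KO and -1.98 (FDR 0.00202, edgeR) in WT.

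The later step of msl-2 ran the other way. In eST cysts it had 0.751, 1.70, 0.856, 1.33 and 1.07 FPKM in the replacement line, 0.5, 1.35 and 2.05 FPKM as the lowest, median and highest value in KO, and 1.04, 1.95, 0.412, 2.42 and 1.45 FPKM in WT. All eST cysts were above all rST cysts in the replacement line and in KO, and in WT 4 of 5 eST cysts were above every rST cyst. For eST over rST the log2 fold change was 1.86 (SE 0.62, FDR 0.0435, edgeR) in the replacement line, 2.11 (SE 0.42, FDR 0.00144) in KO and 2.41 (SE 0.52, FDR 0.00227) in WT. It was the only member called higher in eST than in rST in all 3 lines. On log2(FPKM + 1) with limma the same step was 0.60 in the replacement line, 0.81 in KO and 0.69 in WT, below the fold limit.

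Between adjacent stages the replacement calls of msl-2 lay close to the FDR limit. For eST over rST the call was lost without any of 11 of the 20 replacement cysts, with changes between 1.61 and 1.97, and kept without any of the other 9. For rST over pSC the replacement value of -1.77 (SE 0.61, FDR 0.0441, edgeR) was called without any 1 of only 8 of the 20 replacement cysts and was -1.15 without pSC replicate 3. The WT value of -1.57 (SE 0.51, FDR 0.0308) lost its call without any of pSC replicates 1 and 2 and rST replicates 2 to 5, and was -1.13 without pSC replicate 1. In both lines the pSC cysts ranged widely, from 0.292 to 6.47 FPKM in the replacement line and from 0.421 to 4.09 FPKM in WT. Compared with SG, the WT eST level of msl-2 was lower in FPKM, with a difference of -1.0 in mean log2(FPKM + 0.1), and higher after TMM, with a log2 fold change of 0.44 (FDR 0.43, edgeR) that was not called.

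msl-3, the chromodomain subunit, was abundant in SG and pSC cysts and low in spermatids. In SG cysts it had 16.0 to 35.4 FPKM in the replacement line, 11.9 to 32.7 FPKM in KO and 14.4 to 33.3 FPKM in WT. In pSC cysts it had 51.6, 4.15, 58.2, 20.1 and 20.9 FPKM in the replacement line, 18.8, 20.9, 37.7, 10.4 and 8.53 FPKM in KO, and 25.9, 34.3, 19.6, 12.0 and 24.7 FPKM in WT. The SG and pSC ranges overlapped in every line. In rST cysts it had 5.40, 1.63, 6.74, 4.09 and 1.46 FPKM in the replacement line, 3.20, 4.93 and 6.40 FPKM as the lowest, median and highest value in KO, and 16.8, 4.91, 4.23, 8.41 and 5.92 FPKM in WT.

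The drop of msl-3 at the spermatocyte to spermatid step was called in all 3 lines. It had a log2 fold change of rST over pSC of -2.28 (SE 0.47, FDR 0.00195, edgeR) in the replacement line, -1.52 (SE 0.36, FDR 0.00733) in KO and -1.07 (SE 0.32, FDR 0.0231) in WT. The WT call ended without any of pSC replicates 1 and 2 and rST replicates 2, 3 and 5, at changes between -1.04 and -0.94. WT rST replicate 1, with the highest msl-3 of its group, also had the highest sum of 4 spermatocyte markers (can, sa, nht and tbrd-1) at 240.0 FPKM, against 33.8 to 91.9 FPKM in the other WT rST cysts, and the part of this in the result was not tested. In eST cysts msl-3 had 3.21, 2.73, 6.77, 1.36 and 6.16 FPKM in the replacement line, 1.30, 5.64 and 16.9 FPKM as the lowest, median and highest value in KO, and 1.18, 2.39, 3.17, 2.56 and 3.58 FPKM in WT. All WT eST cysts were below all WT rST cysts, but the log2 fold change of -0.96 (FDR 0.0321, edgeR) did not reach the fold limit.

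mle, the RNA helicase, had a wide spread among spermatocyte cysts. Its level in SG cysts was 12.4, 11.7, 5.71, 11.2 and 8.82 FPKM in the replacement line, 3.18, 6.54, 2.49 and 11.6 FPKM in KO, and 4.81, 7.32 and 8.85 FPKM as the lowest, median and highest value in WT. In pSC cysts it was 7.41, 0.209, 14.9, 0.682 and 0.928 FPKM in the replacement line, 0.586, 2.00, 5.80, 0.174 and 0.219 FPKM in KO, and 16.4, 11.7, 1.98, 0.590 and 5.64 FPKM in WT. Each line thus had pSC cysts at SG levels beside pSC cysts close to spermatid levels. Replacement pSC replicates 1 and 3, with the highest mle, had spermatocyte marker sums of 777 and 779 FPKM and the lowest spermatid marker sums of their group (737 and 743 FPKM). KO pSC replicate 3 had the highest mle of its group together with the highest spermatocyte sum (532 FPKM) and the lowest spermatid sum (900.0 FPKM). In WT the highest mle, in pSC replicate 1, came with the lowest spermatid sum (910 FPKM) but a spermatocyte sum of 344 FPKM. The highest WT spermatocyte sum (558 FPKM) was in pSC replicate 5, which had 5.64 FPKM of mle. Replacement pSC replicate 2 (0.209 FPKM of mle) had sums of 54.5 FPKM for spermatocyte and 2320 FPKM for spermatid markers. Both lay within the rST ranges of its line. KO pSC replicates 4 and 5 (0.174 and 0.219 FPKM of mle) had 174 and 149 FPKM, and 2140 and 2250 FPKM, outside the KO rST ranges. WT pSC replicate 4 (0.590 FPKM of mle) had 214 and 1780 FPKM. The part of these differences in the mle values was not tested.

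In rST cysts mle had 0.255, 0.175, 0.267, 0.531 and 0.163 FPKM in the replacement line, 0.0457, 0.202 and 0.346 FPKM as the lowest, median and highest value in KO, and 2.01, 0.632, 0.273, 0.231 and 0.283 FPKM in WT. All were below every SG cyst of their line. In rST over SG mle changed by -4.29 in the replacement line, -4.30 in KO and -2.98 (FDR 0.000362, edgeR) in WT, where it was -3.81 without rST replicate 1. For rST over pSC it was -3.15 (SE 0.74, FDR 0.00435) in the replacement line, -2.63 (SE 0.86, FDR 0.0413) in KO and -2.99 (SE 0.64, FDR 0.005) in WT. The KO change was -1.53 (FDR 0.323) without pSC replicate 3, and the KO call was lost without any of 7 of the 21 KO cysts. The replacement change was -2.22 without its pSC replicate 3, and the WT change -3.73 without rST replicate 1.

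In KO mle was also called higher in eST than in rST, at 2.59 (SE 0.84, FDR 0.0293, edgeR). KO eST replicate 3 held 6.47 FPKM, against 0.0501 to 1.23 FPKM in the other KO eST cysts, and without it the change was 1.38 (FDR 0.187) and no longer called. The call was also lost without any of KO rST replicates 1, 2, 4 and 5. The same cyst was the highest of its group in mof (3.29 FPKM), msl-3 (16.9 FPKM) and Clamp (32.2 FPKM) and in the spermatocyte marker sum (278 FPKM, against 21.2 to 131 FPKM in the others). The part of that marker RNA in the level of mle was not tested.

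**Figure D3:**
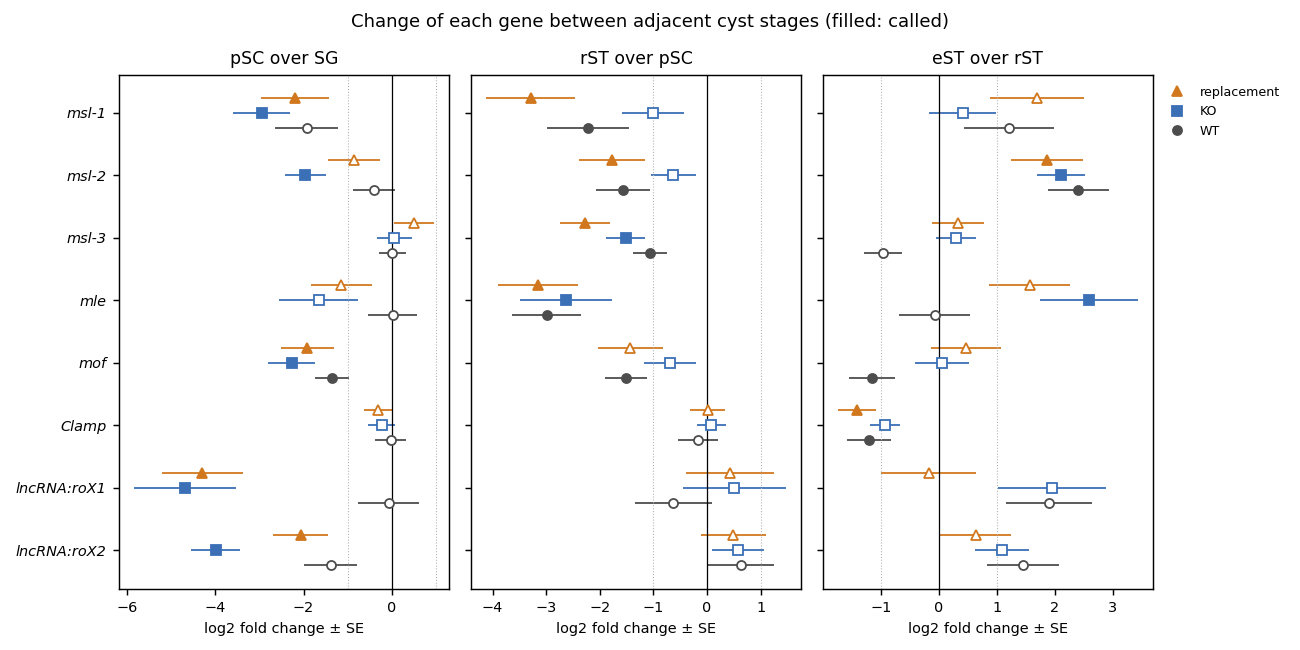
Log2 fold changes of the 8 genes between adjacent stages (pSC over SG, rST over pSC and eST over rST) in the 3 lines, from edgeR with SE as bars. Filled points were called (log2 fold change beyond 1, FDR under 0.05) and dotted lines mark 1 and -1, and msl-2 is filled above the upper line in eST over rST in all 3 lines.

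mof, the acetyltransferase of the MSL and NSL complexes, was the only member called lower in pSC than in SG in all 3 lines. In SG cysts it had 18.1, 15.9, 6.28, 14.9 and 6.88 FPKM in the replacement line, 6.38, 13.3, 5.6 and 13.4 FPKM in KO, and 7.22, 8.78 and 16.5 FPKM as the lowest, median and highest value in WT. In pSC cysts it had 4.23, 0.786, 7.66, 1.93 and 1.90 FPKM in the replacement line, 0.815, 2.57, 3.51, 0.835 and 1.02 FPKM in KO, and 5.03, 6.93, 2.92, 1.19 and 3.31 FPKM in WT. All pSC cysts were below all SG cysts in KO and in WT, and in the replacement line 1 pSC cyst overlapped the lowest pair of SG cysts. From SG to pSC the log2 fold change was -1.92 (SE 0.60, FDR 0.0171, edgeR) in the replacement line, -2.27 (SE 0.54, FDR 0.00242) in KO and -1.35 (SE 0.38, FDR 0.0106) in WT.

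By rST mof was at 1.30, 0.218, 1.02, 1.07 and 0.283 FPKM in the replacement line, 0.482, 0.740 and 1.10 FPKM as the lowest, median and highest value in KO, and 1.56, 0.571, 0.849, 0.769 and 1.11 FPKM in WT. Its log2 fold changes of rST over SG were -3.35 in the replacement line, -2.96 in KO and -2.86 (FDR 5.69e-06, edgeR) in WT. In eST cysts it was at 0.0474 to 1.61 FPKM in the replacement line, 0.116 to 3.29 FPKM in KO, and 0.0797, 0.245, 0.411, 0.350 and 0.36 FPKM in WT. All WT eST cysts were below all WT rST cysts. The call of that step in WT, -1.15 (SE 0.40, FDR 0.0372), was lost without any of eST replicates 1 and 2 and rST replicates 1, 3, 4 and 5, at changes between -1.20 and -0.95. From SG to eST the WT change was -4.01 (SE 0.43, FDR 7.59e-08), the largest of any member between these stages in WT.

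Clamp, the zinc finger protein, had the highest median FPKM of the members in every stage and line and changed late. In SG cysts it had 52.1, 70.9, 42.4, 56.4 and 40.9 FPKM in the replacement line, 36.2, 42.2, 31.9 and 59.7 FPKM in KO, and 34.9, 40.7 and 54.1 FPKM as the lowest, median and highest value in WT. In rST cysts it had 22.0, 22.7, 24.1, 27.8 and 22.3 FPKM in the replacement line, 18.2, 22.0 and 26.5 FPKM in KO, and 26.4, 21.2, 25.9, 23.3 and 23.8 FPKM in WT. On the FPKM scale every rST cyst was below every SG cyst of its line, but the fold change of rST over SG after TMM was only -0.20 in WT and was called in no line. Its rST values were the tightest of all members, within 1.5-fold in each line.

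In eST cysts Clamp had 6.09, 5.58, 11.7, 2.25 and 13.5 FPKM in the replacement line, 4.81, 9.77 and 32.2 FPKM as the lowest, median and highest value in KO, and 1.6, 4.13, 21.1, 5.12 and 4.09 FPKM in WT. The eST cysts were below all rST cysts in the replacement line and in WT, and in KO the highest eST cyst was above every rST cyst. The fitted change of eST over rST was -1.41 (SE 0.33, FDR 0.00787, edgeR) in the replacement line, -0.92 (SE 0.26, FDR 0.0145, not called) in KO and -1.20 (SE 0.38, FDR 0.0215) in WT. The WT value was -1.98 (FDR 1.26e-05) without eST replicate 3, and the call was lost without eST replicate 1 (-0.97), 2 (-1.05) or 5 (-1.06). For eST over SG Clamp was called lower in all 3 lines, at -1.72 (FDR 0.000214), -1.06 (FDR 0.00336) and -1.40 (FDR 0.00201) in the replacement line, KO and WT. The KO call of eST over SG was lost without SG replicate 4 (-0.90) or without eST replicate 1 (-1.0), 2 (-0.94) or 4 (-0.99).

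The roX RNAs, the RNA part of the complex, scattered widely between cysts of a group. roX1 had 14.2, 16.6, 0.491, 3.84 and 23.6 FPKM in replacement SG cysts, 15.2, 14.5, 0.879 and 7.42 FPKM in KO SG cysts and 1.07, 0.714, 1.54, 9.13, 0.456 and 0.979 FPKM in WT SG cysts. In pSC cysts it had 1.00, 0.393, 0.0166, 0.419 and 0.559 FPKM in the replacement line, 0.537, 0.227, 0.163, 0.270 and 0.305 FPKM in KO, and 6.73, 1.5, 0.633, 0.821 and 1.44 FPKM in WT. Most SG cysts of the replacement line and KO were therefore above all but 1 of the WT SG cysts, while every KO pSC cyst was below every WT pSC cyst. For roX1 the log2 fold change of pSC over SG was -4.29 (SE 0.92, FDR 0.00147, edgeR) in the replacement line, -4.68 (SE 1.15, FDR 0.00283) in KO and -0.07 in WT, where it was not called.

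In spermatids roX1 was low in most cysts. In rST it had 0.717, 0.302, 0.947, 0.0539 and 0.204 FPKM in the replacement line, 0.0242, 0.362 and 0.481 FPKM as the lowest, median and highest value in KO, and 1.6, 0.809, 0.661, 0.230 and 1.82 FPKM in WT. In eST it had 0.256, 0.6, 0.257, 0.0867 and 0.355 FPKM in the replacement line, 0.006, 0.374 and 3.49 FPKM as the lowest, median and highest value in KO, and 2.36, 3.42, 0.556, 2.36 and 2.18 FPKM in WT. In WT 4 of 5 eST cysts were above every rST cyst. The WT log2 fold change of eST over rST was 1.90 (SE 0.74, FDR 0.0602, edgeR), which did not pass, and DESeq2 gave 2.03 (FDR 0.0123).

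roX2 had 6.16, 7.28, 0.772, 2.84 and 12.4 FPKM in replacement SG cysts, 37.4, 26.2, 6.71 and 8.27 FPKM in KO SG cysts, and 1.91, 3.28 and 8.49 FPKM as the lowest, median and highest value in WT SG cysts. In pSC it had 1.76, 0.911, 0.547, 1.10 and 1.20 FPKM in the replacement line, 0.878, 0.162, 0.320, 0.773 and 0.839 FPKM in KO, and 4.27, 0.475, 0.369, 0.278 and 1.68 FPKM in WT. Every KO pSC cyst was below every KO SG cyst, and the ranges overlapped in the other lines. The log2 fold change of pSC over SG was -2.06 (SE 0.62, FDR 0.0142, edgeR) in the replacement line, -3.99 (SE 0.56, FDR 1.15e-05) in KO and -1.38 (SE 0.60, FDR 0.0883, not called) in WT. The replacement call was lost with only the groups compared (-2.01, FDR 0.0706). Summed levels of markers of other tissues are given for the same cysts. The 6 muscle sheath markers (Mhc, Mlc1, Mlc2, sls, up and wupA) summed to 6.28 to 14.0 FPKM in pSC and 15.1 to 93.4 FPKM in SG of the replacement line, with no overlap. They summed to 4.77 to 19.8 FPKM in pSC and 18.7 to 131 FPKM in SG of KO, and to 6.98 to 231 FPKM in pSC (6.98 to 15.5 FPKM without replicate 1) and 38.4 to 144 FPKM in SG of WT. The 4 accessory gland markers (Acp26Aa, Acp36DE, Acp53Ea and SP) summed to 10.5 to 35.6 FPKM in pSC and 17.9 to 46.6 FPKM in SG of the replacement line, 13.1 to 39.1 FPKM in pSC and 13.9 to 98.3 FPKM in SG of KO, and 5.92 to 15.8 FPKM in pSC and 125 to 526 FPKM in SG of WT. Sums of 4 somatic cyst cell markers (tj, zfh1, eya and so) averaged 18.7 and 16.2 FPKM in replacement SG and pSC cysts. They were 14.4 and 15.7 FPKM in KO and 21.6 and 28.1 FPKM in WT. Sums of 3 hub markers (upd1, hh and Fas3) averaged 4.02 and 5.69 FPKM in these replacement cysts. They were 6.64 and 8.56 FPKM in KO and 5.91 and 7.19 FPKM in WT. The 3 hemocyte markers summed to at most 0.991 FPKM in these cysts. The part of RNA of these tissues in the roX changes was not tested.

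In rST roX2 had 1.00, 0.930, 0.749, 0.306 and 1.76 FPKM in the replacement line, 0.521 to 1.26 FPKM with a median of 0.698 FPKM in KO, and 1.84, 0.814, 1.06, 0.643 and 1.61 FPKM in WT. In eST it had 1.53, 1.66, 1.35, 0.574 and 1.31 FPKM in the replacement line, 1.18, 1.40 and 2.31 FPKM as the lowest, median and highest value in KO, and 1.18, 1.53, 0.959, 4.76 and 2.02 FPKM in WT. These values rest on 5 to 485 counts per cyst over all stages. Compared with pSC, eST cysts were called higher in KO at 1.67 (FDR 0.0201, edgeR, 8.45% of all genes called higher) and in WT at 2.09 (SE 0.63, FDR 0.00886, 19.6% of all genes). In KO all eST cysts were above all pSC cysts, and the KO call ended without pSC replicate 2 (1.44, FDR 0.0542). In WT the groups overlapped, and the change was 1.47 without eST replicate 4 and 2.95 without pSC replicate 1.

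Set against each other, the roX RNAs had no fixed order in cysts. roX1 was above roX2 in 4 of 5 replacement, 0 of 4 KO and 1 of 6 WT SG cysts. In pSC this held for 0 of 5 replacement, 1 of 5 KO and 4 of 5 WT cysts, in rST for 1 of 5, 0 of 6 and 1 of 5, and in eST for 0 of 5, 1 of 6 and 3 of 5. The median ratio of roX1 to roX2 in SG was 1.9 in the replacement line, 0.479 in KO and 0.337 in WT. WT SG replicate 5 was the highest WT SG cyst in both RNAs, and WT pSC replicate 1 was the highest WT pSC cyst in both. WT pSC replicate 1 also had a summed level of 6 muscle sheath markers of 231 FPKM, against 6.98 to 15.5 FPKM in the other WT pSC cysts, and the part of this RNA in its roX levels was not tested.

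**Figure D4:**
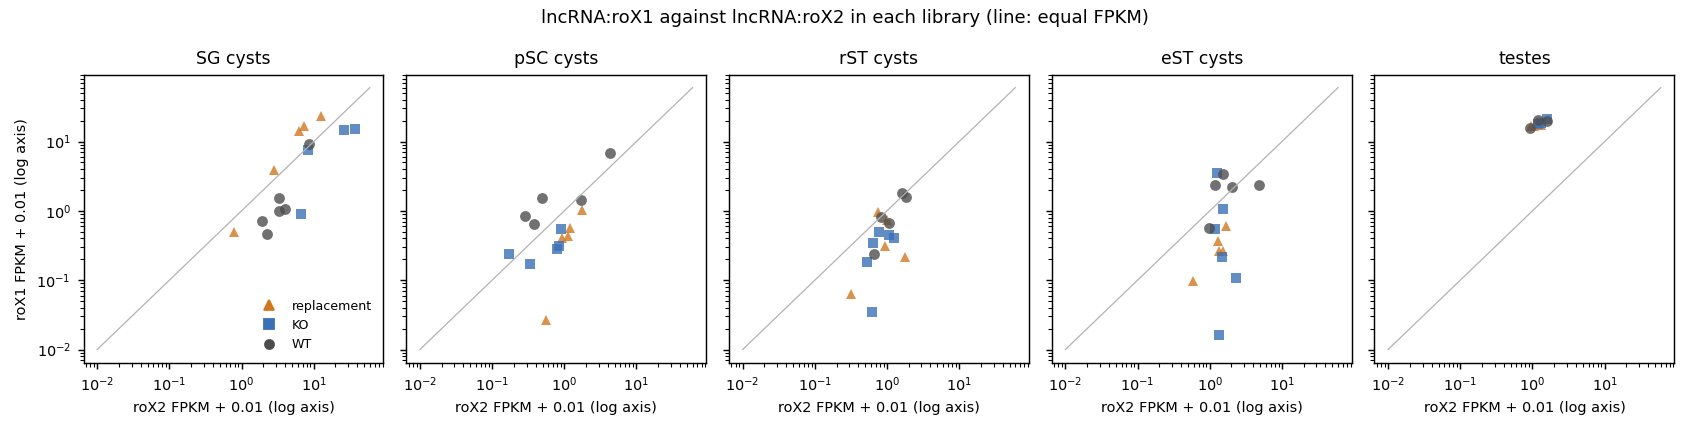
roX1 against roX2 in FPKM for each of the 71 libraries, on log axes, marked by line and tissue. The line shows equal levels, and all 9 testis samples lie on the roX1 side of it with median ratios of 14.6 to 16.9. Testis and cyst libraries were made by different methods.

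Of the 73 member contrasts between stages that were called, 51 were called under every alternative that gave an FDR. Without any 1 library 56 stayed called, and 50 passed both. DESeq2 gave no FDR for Clamp in WT eST over SG, pSC or rST, so these rest on 8 alternatives and not 9. All 73 kept their direction. The order of stages by mean level was the same by median in 15 of 24 gene and line pairs.

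The question of the series was what the miRNA does to expression, so the lines were compared at each stage. In testes 0 of 8 members were called between the lines with edgeR, against 6.18% of all genes in replacement over KO, 5.17% in KO over WT and 7.68% in replacement over WT. At an unadjusted p under 0.05 there was 1 member in replacement over KO (msl-3, -0.16), 1 in KO over WT (msl-2, 0.27) and 0 in replacement over WT, and DESeq2 called 0 in each. Of all 12845 genes tested, 4363, 3708 and 5056 had such a p in edgeR, a larger share than among the members. For msl-3 the testis values were 10.4, 10.6 and 10.9 FPKM in the replacement line, 12.5, 11.5 and 12.7 FPKM in KO and 11.7, 13 and 11.9 FPKM in WT. All replacement samples were below all KO and WT samples in msl-3. In Clamp and roX1 all replacement samples were below all KO samples and overlapped WT. How many of all genes separate in this way with 3 samples per line was not tested. The largest absolute log2 fold changes of any member were 0.23 in replacement over KO, 0.27 in KO over WT and 0.19 in replacement over WT. KO testis replicate 2 had an accessory gland marker sum of 243 FPKM, against 6.13 to 11.2 FPKM in the other testis samples. That replicate was the lowest KO sample in every member but msl-1. Without any 1 testis sample the count of called members stayed 0, and the part of this RNA in the levels was not tested.

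In cysts 0 of 32 member and stage pairs were called in each comparison between lines with edgeR. Over all gene and stage pairs, 1.99% were called in replacement over KO, 2.67% in KO over WT and 5.52% in replacement over WT. At SG alone these shares were 0.364%, 0.129% and 1.9%, so the absence of member calls at SG carries little information. In simulated counts with 200 genes changed by 2 (log2), edgeR recovered 31.5% for KO over WT at SG and 74.5% at rST. At an unadjusted p under 0.05 the counts at SG, pSC, rST and eST were 1, 1, 0 and 0 in replacement over KO, 2, 1, 2 and 0 in KO over WT, and 2, 1, 0 and 2 in replacement over WT. Of all genes tested (13188, 12971, 12415 and 12452 at these stages), 1114, 1554, 2462 and 1746 had such a p in replacement over KO. The counts were 1103, 2324, 3573 and 2198 in KO over WT, and 2219, 2416, 4633 and 2549 in replacement over WT. Among the members DESeq2 called 0 in replacement over KO, 3 in KO over WT and 0 in replacement over WT. Those 3 were roX2 in SG (2.27, FDR 0.0318), roX1 in pSC (-2.52, FDR 0.0163) and mle in rST (-1.39, FDR 0.0441), all by DESeq2, for which edgeR gave 2.2 (SE 0.68, FDR 0.287), -2.62 (SE 0.80, FDR 0.0963) and -1.52 (SE 0.51, FDR 0.0726).

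In SG, pSC and eST the largest difference of any member between lines was that of roX1, in rST that of mle (-1.52 in KO over WT) and in testes that of msl-2 (0.27 in KO over WT). roX1 in SG was at 2.30 (SE 0.89, FDR 0.2, edgeR) in replacement over WT and 2.02 (SE 0.92, FDR 0.562) in KO over WT, with overlapping groups in both. roX1 in eST was at -2.93 (SE 1.02, FDR 0.0983) in replacement over WT, where 1 replacement cyst overlapped the lowest WT cyst. That difference was called when only these lines were fitted (FDR 0.00713). SG cysts of the lines also differed in the accessory gland markers given above, and the part of this RNA in the roX differences was not tested. The biological coefficient of variation was 71.1% in SG, 55.8% in pSC, 41.0% in rST and 59.8% in eST and 9.07% in testes.

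**Figure D5:**
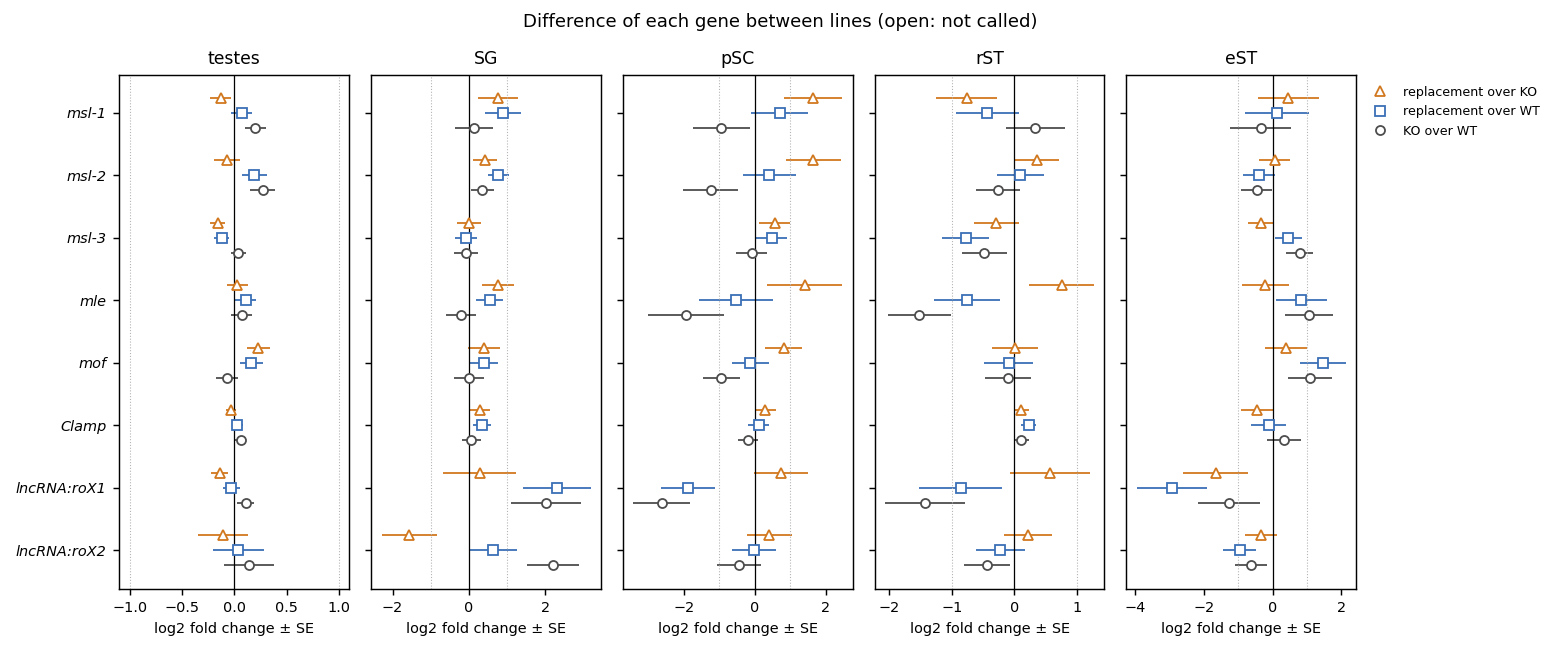
Log2 fold changes of the 8 genes between lines (replacement over KO, KO over WT and replacement over WT) in testes and at the 4 cyst stages, from edgeR with SE as bars. All points are open, since 0 of 8 members in testes and 0 of 32 member and stage pairs in cysts were called, and the points farthest from 0 are those of roX1, up to -2.93 in eST.

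Whether the stage course itself differed between lines was tested as the difference of 2 stage changes in 1 fit over the 62 cysts, a test chosen after the values were seen. Of 72 such member tests over 3 adjacent steps, 0 had an FDR under 0.05 (edgeR over 13661 genes) and 11 an unadjusted p under 0.05, and the smallest unadjusted p came from roX1 in pSC over SG. The difference was -4.11 (SE 1.28, FDR 0.0945, edgeR) for replacement minus WT, -4.58 (SE 1.31, FDR 0.115) for KO minus WT and 0.465 (FDR 1) for replacement minus KO. For roX2 it was -2.58 (SE 0.82, FDR 0.193) for KO minus WT. Of all genes, 1.13%, 0.505% and 0.19% passed for pSC over SG in replacement minus WT, KO minus WT and replacement minus KO. For eST over rST the shares were 1.77%, 3.31% and 0.00732%, and for rST over pSC 0.0% in each, where the absence of member calls carries no information. The changes of both roX RNAs from SG to pSC were thus not shown to differ between the lines.

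Other genes of the pathway were read from a list of 25, made of 6 NSL complex genes, 3 regulators of msl-2, 11 genes whose proteins associate with the MSL complex or its chromatin, and 5 paralogs of members. Many were lower at later stages. In pSC over SG 14 of 25 were called lower in the replacement line, 12 in KO and 9 in WT, beside 22.0%, 25.4% and 16.0% of all genes. In rST over pSC 11, 5 and 9 of 25 were called lower, beside 18.5%, 13.5% and 12.8%, so the count in KO was close to the background. The WT median of the list was -0.56 in pSC over SG and -0.89 in rST over pSC, beside 0.18 and -0.18 for all genes. In eST over rST 3 of 25 were called higher in the replacement line, 3 in KO and 4 in WT, near the 10.2%, 11.3% and 12.0% of all genes, and in WT 4 were also called lower. Chro, a chromodomain protein of interbands, was called higher in all 3 lines at that step, at 2.09, 1.01 and 1.43 in the replacement line, KO and WT.

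Among the regulators, Unr, an RNA-binding protein that represses msl-2 translation together with Sxl in females, fell from SG to pSC by 3.92 in the replacement line, 4.82 in KO and 3.10 in WT on the log2 scale. Sxl, the master switch of female sex determination, fell by 2.01 at the same step in WT and was higher by 1.74 in eST over rST in WT. Top2, topoisomerase II, fell in WT by 2.59 in pSC over SG and by 3.09 in rST over pSC. The WT changes at the step from rST to eST also included how, an RNA-binding protein that takes part in msl-2 repression, at 2.13, and Set2, a histone methyltransferase of active genes, at 1.38, while MBD-R2 of the NSL complex was at -1.47 and Iswi, a nucleosome remodeller, at -1.33. All of these were called with edgeR.

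Between lines, 5.17% of all genes were called in testes in KO over WT and 7.68% in replacement over WT. Of the 25 pathway genes 1 was called in each, no more than this background. The gene was CG1894 (FBgn0039585, 3R:28484557-28486062, plus strand, no exon shared with another gene), which encodes a MYST-family acetyltransferase related to MOF. In testes it had 3.09, 2.76 and 3.00 FPKM in the replacement line, 3.48, 2.91 and 3.39 FPKM in KO and 11, 12.7 and 14.6 FPKM in WT. Every replacement and KO sample was below every WT sample. The log2 fold change was -1.97 (SE 0.12, FDR 3.45e-08, edgeR) in replacement over WT, -1.90 (SE 0.12, FDR 1.26e-07) in KO over WT and -0.07 (FDR 0.779) in replacement over KO, so the level was low both in the line without the miRNA genes and in the line with the D. simulans copy.

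The same direction appeared in cysts. In rST CG1894 had 0.44, 0.133, 1.33, 0.312 and 0.253 FPKM in the replacement line, 0.121 to 1.85 FPKM in KO and 11.2, 4.71, 1.59, 1.93 and 3.04 FPKM in WT. All replacement rST cysts were below all WT rST cysts, and KO overlapped WT. In rST 1 of 24 pathway genes tested was called in each comparison with WT. Of all genes, 11.4% were called in replacement over WT and 5.69% in KO over WT. The log2 fold change in rST was -2.78 (SE 0.73, FDR 0.0141, edgeR) in replacement over WT and -2.70 (SE 0.68, FDR 0.0199) in KO over WT. The second was -3.52 without KO rST replicate 3, and lost its call without WT rST replicate 1 (-2.23). In SG, where the gene was most abundant, it had 17.1 to 141 FPKM in the replacement line, 18.2 to 157 FPKM in KO and 113 to 404 FPKM in WT, with changes of -1.6 (FDR 0.2) and -1.6 (FDR 0.51) that did not pass. In eST Set2 was called in replacement over KO (1.52, FDR 0.0455) and enok, another MYST-family gene, in replacement over WT (1.99, FDR 0.0422). Each was 1 of 25 pathway genes, beside 1.61% and 5.11% of all genes. These calls were lost without any of 12 and 10 of the 16 eST cysts. mof itself was not called in testes, with 4.65, 5.01 and 4.05 FPKM in the replacement line, 4.26, 3.67 and 4.18 FPKM in KO and 3.83, 4.33 and 4.95 FPKM in WT.

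The genes most like each member were found as the highest Pearson r of log2(FPKM + 1) over the 62 cysts among 10751 genes of at least 1 FPKM on average. The points share libraries, stages and lines, so r is a description. The closest to msl-1 were SMC3 (0.979), vimar (0.978) and l(3)72Dn (0.972), and to mle Sap130 (0.975), Nrd1 (0.971) and mute (0.97). The closest to mof were p115 (0.979), CG8939 (0.978) and Arp8 (0.978), all on the X chromosome as mof is. msl-3 was closest to CG6567 (0.97), Clamp to XRCC1 (0.968) and msl-2 to Acat2 (0.924). Among pairs of members r was highest for msl-1 and mof (0.933) and for mle and mof (0.919), and lowest for Clamp and roX1 (0.241). The gene most like roX1 was roX2 (0.826), followed by the noncoding RNA Hsromega (0.814), and roX2 was closest to E(spl)mbeta-HLH (0.869).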

How the data were processed

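RNA-seq libraries of 9 testis samples and 62 single cysts of the replacement line, D. mel KO and D. mel WT were grouped by their own labels. The authors trimmed reads with Trimmomatic 0.36, mapped them with HISAT2 2.2.0, and ran HTSeq 0.6.0 with strand ignored, and the counts they deposited are raw. FPKM values of each library were computed by the authors with StringTie 2.1.4 and are listed by gene identifier, so 17808 symbols came from the reference table and 1 duplicated gene was left out. Gene positions and exon overlaps came from the Release 6 annotation. FPKM came in tables per library, while the count tables hold 17612 genes.

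Genes averaging over 5 normalized counts in 1 group or more were tested on counts with edgeR 4.0.16 (TMM, quasi-likelihood, two-sided, limma 3.58.1, R 4.3.3), with 1 fit per line over its cyst stages, 1 fit per stage over the lines and 1 fit for testes. P-values were adjusted over all genes tested by the Benjamini-Hochberg method. Alternatives were DESeq2 1.42.0, its size factors in edgeR, no filter, a filter of 50 normalized counts, limma on log2(FPKM + 1) and log2(FPKM + 0.1), a replicate block, only the groups compared, 1 fit over the 62 cysts and leaving out each library. The tests of stage changes between lines and the match of cysts to lines were added after seeing the data. The members and lists were chosen with earlier results of these data known. Genes named were the members, the pathway list, and the 3 genes most like each member. Exons shared with other genes, and the cDNA amplification of cysts, can affect levels. The tests were checked on simulated data with 200 changed genes. A planned search for motifs in promoters was not run, since no sequence table was used here. No column was left unmapped. Python 3.11.15, numpy 2.4.6, pandas 2.3.3 and matplotlib 3.10.9 were used.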

Additional observations from a re-analysis of the deposited data

Results flagged for a closer look

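In 12 of 96 member, line and stage groups of 4 to 6 cysts, the highest cyst stood apart from its group by Dixon's criterion. Chance meets it in about 1 of 20 groups when values are independent and normally distributed. FPKM were taken without logs and some cysts stood apart in more than 1 member, so 12 of 96 cannot be set against that rate. In WT SG cysts, replicate 2 held 7.35 FPKM of msl-1 (1.70 to 3.05 FPKM in the others), and replicate 5 held 9.13 FPKM of roX1 (0.456 to 1.54 FPKM) and 8.49 FPKM of roX2 (1.91 to 4.03 FPKM). WT pSC replicate 1 held 6.73 FPKM of roX1, against 0.633 to 1.5 FPKM in the others. mle stood apart in WT rST replicate 1 at 2.01 FPKM (0.231 to 0.632 FPKM in the others), in replacement rST replicate 4 at 0.531 FPKM (0.163 to 0.267 FPKM) and in KO eST replicate 3 at 6.47 FPKM (0.0501 to 1.23 FPKM). The same KO eST cyst held 3.29 FPKM of mof, against 0.116 to 1.10 FPKM in the others. Other eST cysts that stood apart were WT replicate 3 in Clamp at 21.1 FPKM (1.6 to 5.12 FPKM), KO replicate 2 in roX1 at 3.49 FPKM (0.006 to 1.06 FPKM), WT replicate 4 in roX2 at 4.76 FPKM (0.959 to 2.02 FPKM) and KO replicate 5 in roX2 at 2.31 FPKM (1.18 to 1.54 FPKM). The causes were not tested.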

How the results depend on the processing

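In WT pSC over SG, where 1 member was called, 2 were called with 1 fit over all 62 cysts, DESeq2, DESeq2 size factors in edgeR, a filter of 50 normalized counts, or only the groups compared, and 3 with limma on log2(FPKM + 0.1) or log2(FPKM + 1). In WT rST over pSC, where 5 were called, 1 was called with 1 fit over all 62 cysts, 3 with the replicate block and 3 with limma on log2(FPKM + 1). In WT eST over rST, where 3 were called (msl-2 higher, mof and Clamp lower), the alternatives gave 2 to 4. Leaving out each cyst gave 1 to 3 members in pSC over SG (3 without pSC replicate 1), 2 to 5 in rST over pSC (2 without any of pSC replicates 1 and 2 and rST replicates 2, 3 and 5) and 1 to 5 in eST over rST (1 without eST replicate 1 or 2, 5 without eST replicate 3). Between lines at the 4 cyst stages, KO over WT had 3 calls with DESeq2 and 0 to 1 without any 1 cyst (1 without replacement pSC replicate 3 or WT rST replicate 3), and replacement over WT had 1 call with the replicate block and 1 with only the groups compared. The other counts between lines, in testes and cysts, were 0 under every alternative run. By medians, the order of stages was kept in 15 of 24 gene and line pairs. No called fold change of a member turned its direction. DESeq2 size factors moved the median of all genes by -0.20 to 0.63 (log2) in stage contrasts, and by over 0.1 in 16 of 18 of them. Whether equal replicate numbers pair the samples was not settled. Deviations of same-numbered pairs were correlated over 0.1 in 3 of 9 pairs in testes and 8 of 15 between lines in eST. Their median r was 0.071 in testes and 0.167 in eST, against -0.04 and -0.029 for other pairs. In each fit the median of same-numbered pairs was the higher one, though low. With the block, roX1 in eST was called in replacement over WT (FDR 0.043), and roX2 in replacement pSC over SG lost its call (-1.23, FDR 0.106). The causes of these shifts were not tested. Depth limits roX2 in testes and msl-1 in spermatids, where counts are few.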

Other observations

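The level of X-linked against autosomal genes was measured beside the members, since the X chromosome is the target of the complex. Among genes of at least 1 FPKM, the ratio of the median X-linked to the median autosomal level, averaged over libraries, in SG, pSC, rST and eST cysts was 0.78, 0.856, 0.937 and 0.896 in the replacement line, 0.781, 0.842, 0.926 and 0.909 in KO, and 0.829, 0.802, 0.875 and 0.923 in WT. In testes it was 0.784 in the replacement line, 0.765 in KO and 0.744 in WT. With genes of at least 0.1 FPKM the order of stages changed, and rST had ratios of 0.746, 0.735 and 0.711 in the replacement line, KO and WT, against 0.832, 0.845 and 0.842 in SG. The order of stages in this ratio therefore depended on the lower limit of expression, and SDs over libraries were 0.00917 to 0.0807 at 1 FPKM and 0.0163 to 0.145 at 0.1 FPKM, and no test was made of its relation to the members.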
